A study of Canis lupus familiaris with 12 samples.

Results

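Heat shock proteins and their DnaJ partners are the molecular chaperones that fold, refold and hold other proteins. They were taken here as every row of the left ventricle and mitral valve gene tables whose symbol begins with HSPA, HSPB, HSP90, HSPD, HSPE, HSPH or DNAJ. The rule found 60 of the 24223 genes listed in each table: 8 HSP70 genes, 3 HSP110 genes, 1 HSP90 gene, 1 chaperonin gene, 6 small heat shock proteins, 38 DNAJ genes (2 DNAJA, 11 DNAJB and 25 DNAJC) and 3 genes that only share the HSPB letters. The tables come from RNA sequencing of 12 heart libraries of 8 dogs, with and without degenerative mitral valve disease (DMVD), in which the valve leaflets thicken and leak. The DMVD ventricle group holds 2 libraries, 1 of a Jack Russell Terrier aged 5 years and 1 of a Pomeranian aged 9 years. The control ventricle group holds 4, from a Beagle aged 8 years and from 3 dogs described as Hound mix, all aged 3 years. The DMVD valve group holds 3 libraries, from the same Pomeranian and from Beagles aged 16 and 17 years, and the control valve group holds 3, from the younger Beagle and 2 of the Hound mixes. That a dog gave both tissues is read from matching sample names. Diagnosis cannot be told apart from breed and age in either tissue.

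HSP70 proteins bind unfolded stretches of other proteins in a cycle driven by ATP. DnaJ proteins, also called HSP40s, bring clients to HSP70 and start its ATP hydrolysis through their J domain, and HSP110 proteins exchange the nucleotide again. HSP90 matures signalling proteins and muscle myosin, the chaperonin pair HSPD1 and HSPE1 folds proteins inside mitochondria, and small heat shock proteins hold unfolding proteins without using ATP. In heart muscle several small heat shock proteins are abundant and bind the contractile and filament proteins, and mutations of some of them cause muscle or nerve disease in people.

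Each table gives 1 value per group, read as FPKM (sequenced fragments per kilobase of gene, scaled to library size). No value per dog was used, so whether the groups overlap cannot be seen and no SD can be given. Log2 fold changes are given as DMVD relative to control. Each carries after ± a standard error (SE) worked back from the statistic of the authors' own test, which is not a spread measured here. A gene was called where the authors' p-value, adjusted by Benjamini-Hochberg over all tested genes of the tissue, was under 0.05. Of the 60 genes 53 were tested, the same ones in both tissues. The other 7 were too low for the authors' test: DNAJB8, DNAJC5B and HSPB9 were listed at 0 in all 4 groups, and DNAJB7, DNAJB13, DNAJC5G and DNAJC22 were listed at 0.0227 to 0.492 FPKM. HSPB9 and DNAJB8 are known mainly from testis, and DNAJB13 from the flagellum.

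As checks of the tissue, 13 tested cardiomyocyte markers summed to 37159 FPKM in control ventricle and 33124 FPKM in DMVD ventricle, a sum without MYH7, which the authors' test skipped there. In the valve 14 of them, MYH7 included, summed to 27836 FPKM in control and 14947 FPKM in DMVD, so heart muscle transcripts were abundant in the valve libraries too. The 7 tested fibroblast and valve interstitial cell markers summed to 1426 FPKM in control valve and 2030 FPKM in DMVD valve, against 110 and 88.3 FPKM in the ventricle. In such bulk samples fewer cells of a type and less RNA per cell cannot be told apart.

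Among the genes of the rule, the most abundant transcripts of the ventricle were the mitochondrial import factor DNAJC19 and the small heat shock proteins HSPB1 and HSPB7. The small heat shock protein CRYAB is outside the rule and not in this order. It was at 691 FPKM in control and 969 FPKM in DMVD ventricle, and at 680 and 513 FPKM in the valve. DNAJC19, a J protein of the motor that pulls proteins into mitochondria, was at 1031 FPKM in control and 1357 FPKM in DMVD ventricle. HSPB1, which holds unfolding proteins and binds actin, was at 881 and 996 FPKM in the same order, and the heart-enriched HSPB7 at 702 and 907 FPKM. The constitutive HSP70 of the cytosol, HSPA8, followed at 409 and 443 FPKM. In the valve the order began with HSPB1 (923 FPKM in control, 847 FPKM in DMVD), DNAJC19 (546 and 381 FPKM), HSPB7 (481 and 353 FPKM) and HSPB6 (492 and 187 FPKM). HSP90AA1, the inducible cytosolic HSP90, was at 188 and 199 FPKM in the ventricle and 231 and 218 FPKM in the valve. By its mean, HSPB1 lay above 99.1% of tested genes in the ventricle and 99.2% in the valve. At the other end, the neuronal clathrin-uncoating factor auxilin (DNAJC6) was at 0.603 and 0.232 FPKM in the ventricle. Without values per dog no neighbours in this order can be shown to differ.

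**Figure D1:**
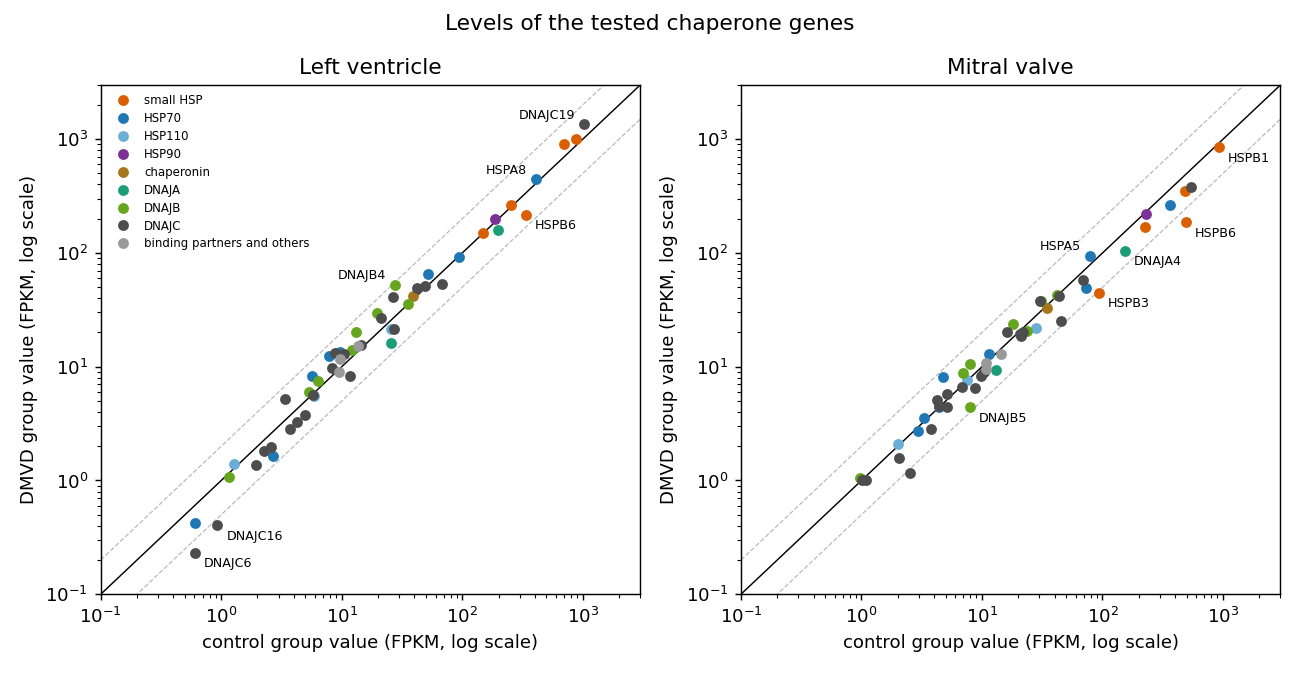
DMVD against control group value of the 53 tested chaperone genes in each tissue, both axes in FPKM on a log scale, 1 point per gene, coloured by class. The solid line marks equal values and the dashed lines a 2-fold difference; DNAJC6 and DNAJC16 lie below the lower line in the ventricle, and HSPB3, HSPB6 and DNAJC12 (unlabelled) in the valve.

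No chaperone gene was called in the left ventricle. Of the 53 tested, 0 had an adjusted p under 0.05, where 3.08% of all 13788 tested genes did, 1.92% higher and 1.16% lower. An unadjusted p under 0.05 was found for 1 of 53, or 1.89%, against 11.3% of all tested genes, 5.74% higher and 5.51% lower. The median log2 fold change of the 53 was 0.08, with a range of -1.38 to 0.93, against a median of -0.04 over all tested genes. DMVD values were above control in 31 of 53, or 58.5%, against 47.1% of all tested genes with a fold change. No member was 2-fold higher or more, and 2 were at least 2-fold lower, together 3.77% against 17.6% of all tested genes with a fold change, of which 9.01% were higher and 8.59% lower.

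DNAJB4, a DnaJ partner of HSP70 found in heart and skeletal muscle, had the smallest p in the ventricle. It was at 27.7 FPKM in control and 52.8 FPKM in DMVD (ENSCAFG00000020357, chromosome 6, 68876346 to 68888673, CanFam3.1). Its log2 fold change was 0.93 ± 0.45, with p = 0.0405 in the authors' deposited table and an adjusted p of 0.398 (Benjamini-Hochberg). Its relatives with a general role in the cytosol were nearer to 0: DNAJB1, the heat-inducible partner of HSP70, had 0.23 ± 0.42 (6.39 FPKM in control, 7.51 FPKM in DMVD), and DNAJB5 had 0.21 ± 0.42. The DNAJB class as a whole had 7 of 8 tested members above 0, with a median of 0.22, where 47.1% of all tested genes with a fold change were above 0. Of the 7, DNAJB2 had 0.0046 ± 6.64, which gives no direction. DNAJA4 and DNAJA3, the 2 DNAJA members, had -0.32 ± 0.46 and -0.68 ± 0.55.

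Among the HSP70 genes of the ventricle 5 of 8 had higher and 3 lower DMVD values, with a median of 0.23. HSPA13, a microsomal HSP70 relative, had 0.67 ± 0.42 (7.78 FPKM in control, 12.3 FPKM in DMVD), and HSPA14, which acts with the ribosome, 0.54 ± 0.43. HSPA5, the HSP70 of the endoplasmic reticulum (ER) also known as BiP, had 0.34 ± 0.67. HSPA8 had 0.11 ± 0.53 and the mitochondrial HSPA9 -0.01 ± 0.46, a value that turns to 0.0167 when all fold changes are centred. HSPA1L, a copy known mainly from testis, was the lowest of the class at -0.71 ± 0.56. The 3 HSP110 genes stayed within -0.26 and 0.13, and HSP90AA1 had 0.08 ± 0.50.

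Of the 5 tested small heat shock proteins 4 had slightly higher DMVD values in the ventricle, with a median of 0.03. HSPB6, which binds actin-regulating proteins and is phosphorylated by protein kinase A, was the exception at 337 FPKM in control and 217 FPKM in DMVD, or -0.64 ± 0.42. HSPB3 was at 148 and 150 FPKM and HSPB8, the BAG3 partner in clearing damaged muscle filaments, at 256 and 261 FPKM. The DNAJC class, J proteins with specialised jobs, was split, with 10 of 22 tested members above and 12 below 0 and a median of -0.17. DNAJC6 had -1.38 ± 0.76 and DNAJC16 -1.20 ± 0.67, with Benjamini-Hochberg adjusted p = 0.519 and 0.534 from the p-values of the authors' deposited table. Both were under 1 FPKM in both ventricle groups. With 1 FPKM added to each group the values became -0.38 and -0.46, and no member was then 2-fold lower in the ventricle. Of the more abundant ones, DNAJC15, a mitochondrial inner membrane J protein, was at 26.8 FPKM in control and 40.8 FPKM in DMVD, or 0.61 ± 0.48.

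**Figure D2:**
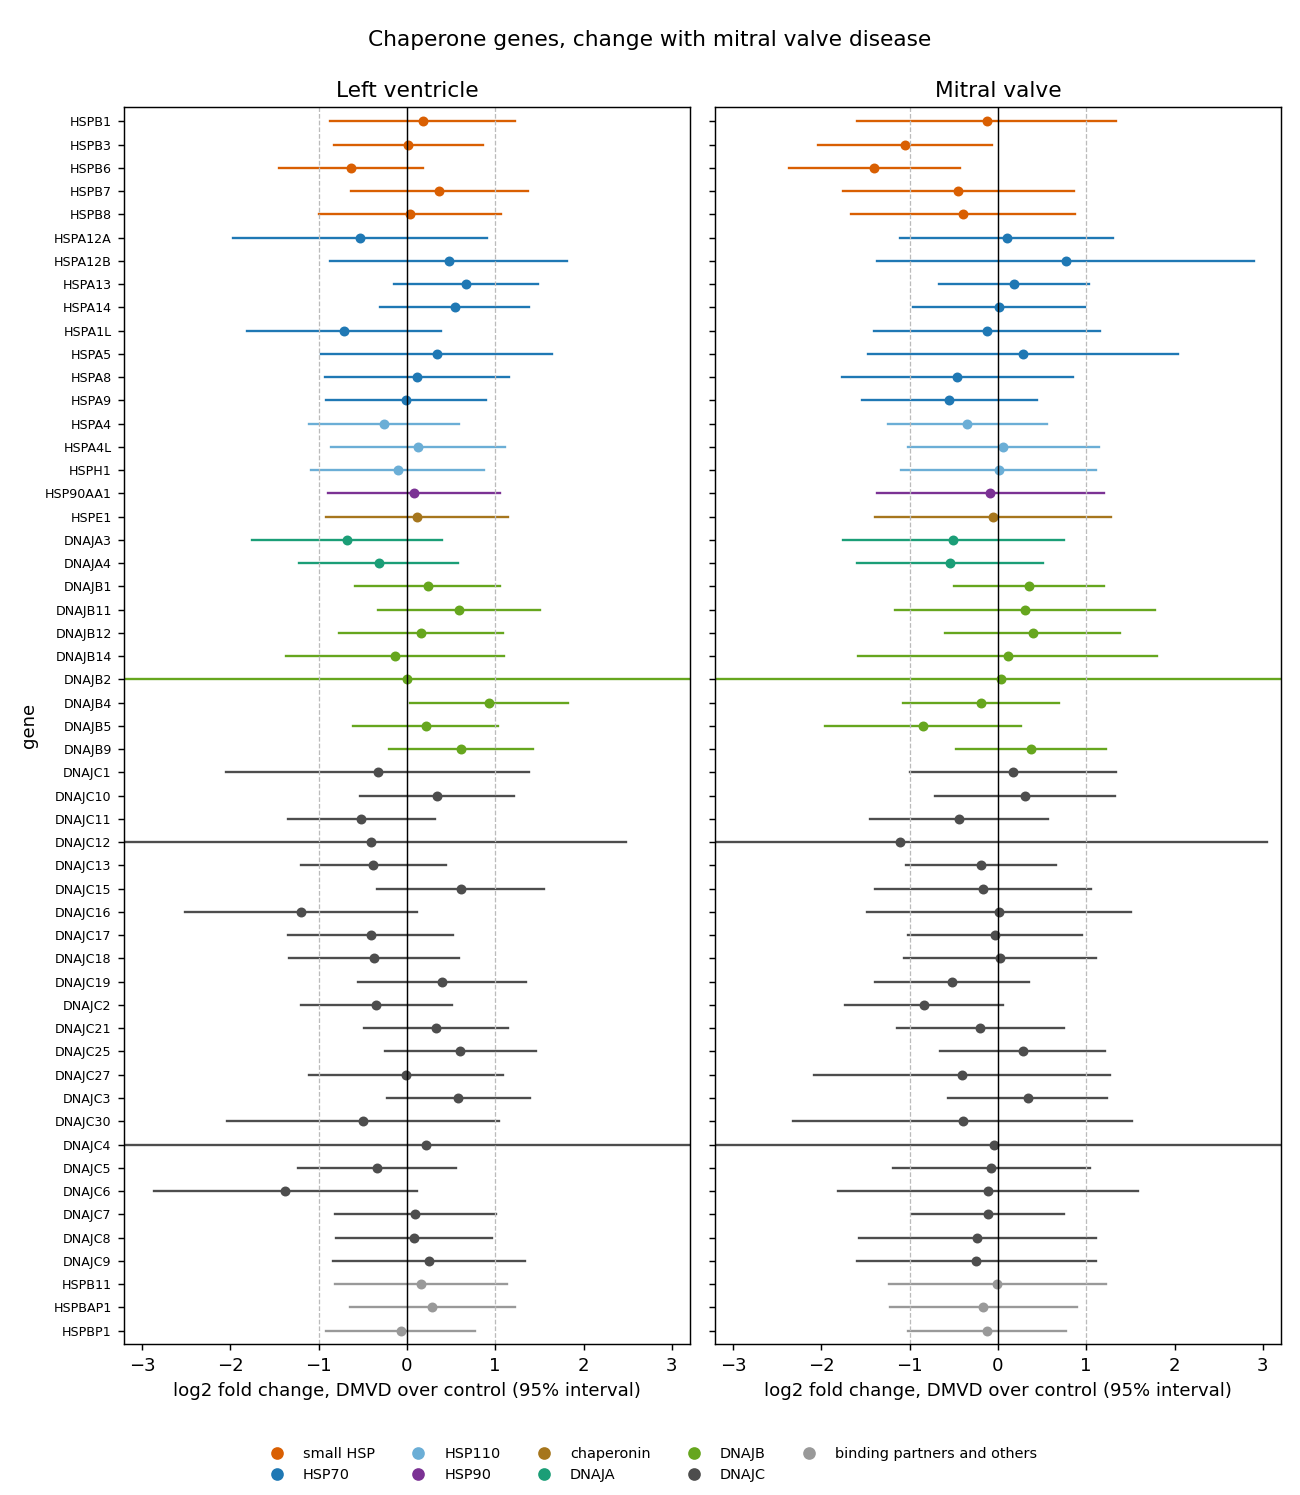
Log2 fold change (DMVD over control) with its 95% interval from the implied SE for the 53 tested chaperone genes, by class, left ventricle on the left and mitral valve on the right; dashed lines mark 2-fold. Nearly all intervals cross 0; those of DNAJB4 in the ventricle and of HSPB3 and HSPB6 in the valve do not, and those of DNAJB2, DNAJC4 and DNAJC12 run past the axis, where they are cut.

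No chaperone gene was called in the mitral valve either. Of the 53 tested, 0 had an adjusted p under 0.05, where 0.419% of all 14810 tested genes did, 0.311% higher and 0.108% lower. An unadjusted p under 0.05 was found for 2 of 53, or 3.77%, against 4.2% of all tested genes, 2.73% higher and 1.47% lower. The median log2 fold change was -0.11, with a range of -1.40 to 0.77, against 0.05 over all tested genes. DMVD values were below control in 34 of 53, or 64.2%, where 45.3% of all tested genes were at or below 0 and 54.7% above. None was 2-fold higher or more, where 7.58% of all tested genes were, and 3 were at least 2-fold lower, HSPB6, HSPB3 and DNAJC12, or 5.66% against 4.15%. With 1 FPKM added 2 of them were, both small heat shock proteins.

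The 2 members with an unadjusted p under 0.05 in the valve were both small heat shock proteins. HSPB6 was at 492 FPKM in control and 187 FPKM in DMVD (ENSCAFG00000006801, chromosome 1, 116878423 to 116879943, CanFam3.1). Its log2 fold change was -1.40 ± 0.49, with p = 0.00447 in the authors' deposited table and an adjusted p of 0.352 (Benjamini-Hochberg). HSPB3, a small heat shock protein largely restricted to muscle, was at 93.0 FPKM in control and 44.8 FPKM in DMVD (ENSCAFG00000018389, chromosome 4, 60985194 to 60985647). Its log2 fold change was -1.05 ± 0.50, with p = 0.0364 in the authors' deposited table. All 5 tested small heat shock proteins had lower DMVD values in the valve, with a median of -0.45: HSPB7 had -0.45 ± 0.67, HSPB8 -0.40 ± 0.65 and HSPB1 -0.12 ± 0.75.

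Most heart muscle markers also had lower values in the DMVD valve group, though nearly all did not pass the threshold. Of 14 tested cardiomyocyte markers 13 had lower DMVD values, with a median of -0.96. Of these 1 was called lower, the light chain MYL3 (1335 FPKM in control, 36.6 FPKM in DMVD, Benjamini-Hochberg). That is 7.14% of the list, against 0.108% of all tested genes called lower in the valve. The single marker above 0 was ACTC1, at 0.18 ± 2.13, and the light chain MYL4 (-0.14 ± 1.67) and CSRP3 (-0.26 ± 0.88) were the nearest to 0 of those below. Each small heat shock protein can be set against the summed FPKM of that list. HSPB6 was 1.77% of the sum in control and 1.25% in DMVD valve, and HSPB3 0.334% and 0.300%. HSPB1, HSPB7 and HSPB8 were a larger share in DMVD than in control, at 5.67% against 3.32%, 2.36% against 1.73% and 1.14% against 0.805%. These shares carry no error, and large terms of the valve sum were imprecise. The SE of the log2 fold change was 1.94 for TPM1, 2.52 for TNNT2 and 7.63 for MYH7. In the ventricle, where the median of 13 such markers was -0.01, HSPB6 was 0.907% of the sum in control and 0.655% in DMVD. The ventricle sum leaves out MYH7 and the valve sum includes it, so shares cannot be compared between the tissues. The part of heart muscle content in the valve values was not tested.

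Of the other valve classes DNAJA had a median further from 0 than the small heat shock proteins, at -0.52, with DNAJA4 at -0.54 ± 0.54 and DNAJA3 at -0.50 ± 0.64. HSP70 genes had a median of 0.05, with HSPA9 at -0.55 ± 0.51 (72.6 FPKM in control, 49.7 FPKM in DMVD), HSPA8 at -0.46 ± 0.67 and HSPA12B, a distant relative known from endothelial cells, at 0.77 ± 1.09. HSPA12B also had a higher DMVD value in the ventricle (0.47 ± 0.68). All 9 tested endothelial markers had higher DMVD values in both tissues, with medians of 0.68 in the ventricle and 0.81 in the valve. Of these markers 3 were called higher in the ventricle, or 33.3%, against 1.92% of all tested genes. In the valve 1 was, or 11.1%, against 0.311%. HSPA12B was 10.4% of the summed FPKM of the 9 markers in control and 6.53% in DMVD ventricle. Its share in the valve was 7.03% in control and 5.95% in DMVD. The HSPA12B locus is listed for 7 genes. Its link with endothelial content was not tested. DNAJB members had a median of 0.21, with DNAJB1 at 0.35 ± 0.43 and DNAJB5 lowest at -0.85 ± 0.57. Of 22 tested DNAJC members 16 were below 0, among them the ribosome-associated DNAJC2 at -0.84 ± 0.45 (45.1 FPKM in control, 25.2 FPKM in DMVD) and DNAJC19 at -0.52 ± 0.45. With fold changes centred, 18 of 22 DNAJC members and 39 of all 53 members were below 0 in the valve. The members that turned were DNAJC16, DNAJC18, DNAJB2, HSPA14 and HSPH1, all within 0.03 of 0 before centring. HSP90AA1 had -0.08 ± 0.66 and HSPE1 -0.06 ± 0.68.

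Grouped by cell compartment, a grouping made with the values in view and so given without a test, the ER and mitochondrial chaperones had different directions in the valve. The 7 ER members are HSPA5, HSPA13, the stress-induced DNAJB9, the HSPA5 partners DNAJB11 and DNAJC3, DNAJC1, and DNAJC10, which also reduces disulfides. All 7 had higher DMVD values in the valve, between 0.17 and 0.37 with a median of 0.31, and 6 of 7 did in the ventricle, with a median of 0.58. In the ventricle DNAJB9 was at 13.1 FPKM in control and 20.1 FPKM in DMVD (0.61 ± 0.41), DNAJB11 at 19.7 and 29.7 FPKM (0.59 ± 0.47) and DNAJC3 at 8.74 and 13.1 FPKM (0.58 ± 0.41), with DNAJC1 the exception at -0.33 ± 0.87. The counts depend on which genes are placed in the ER. With 5 further J proteins placed at its membrane (DNAJB12, DNAJB14, DNAJC16, DNAJC18 and DNAJC25), 8 of 12 had higher DMVD values in the ventricle, with a median of 0.34. In the valve all 12 did, with a median of 0.28, and 10 of 12 with fold changes centred. Of the 5, DNAJB14, DNAJC16 and DNAJC18 were lower in the ventricle, at -0.13, -1.20 and -0.38. The 7 mitochondrial members are HSPA9, HSPE1, DNAJA3, DNAJC11, DNAJC15, DNAJC19 and DNAJC30. All 7 had lower DMVD values in the valve, with a median of -0.44, and 4 of 7 did in the ventricle, with a median of -0.01. With DNAJC4 added, 8 of 8 did in the valve and 4 of 8 in the ventricle. None of the genes in these lists had an unadjusted p under 0.05 in either tissue in the authors' deposited table. Of all tested genes 11.3% did in the ventricle and 4.2% in the valve.

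**Figure D3:**
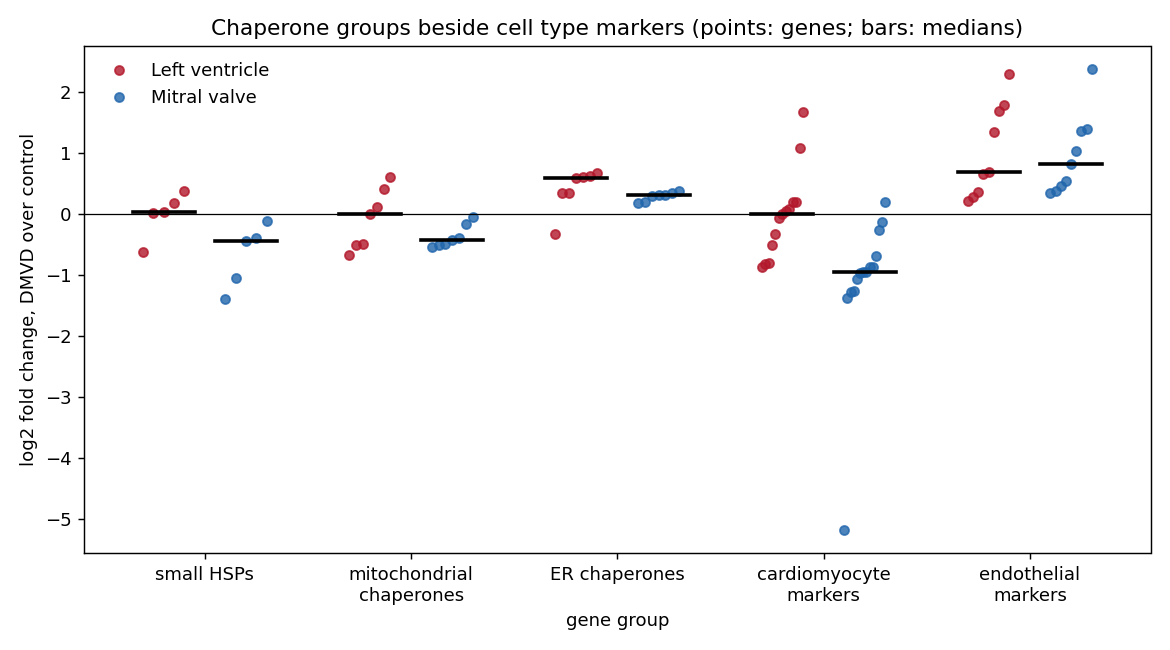
Log2 fold change (DMVD over control, vertical axis) of single tested genes in 3 chaperone groups and 2 cell type marker lists, left ventricle in red and mitral valve in blue; black bars are medians. The valve medians are -0.45 for small heat shock proteins (HSPs), -0.44 for mitochondrial chaperones, 0.31 for ER chaperones and -0.96 for cardiomyocyte markers.

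The change in the valve was also set against that in the ventricle, gene by gene, as the valve log2 fold change minus the ventricle one. Of 53 members 0 passed an adjusted p of 0.05 and 0 had an unadjusted p under 0.05, where 0.107% and 2.66% of all 13099 genes compared did. No chaperone gene was therefore shown to change differently in the valve and the ventricle. The smallest p was that of DNAJB4, p = 0.0787 from the errors implied by the authors' deposited table, for a difference of -1.13 ± 0.64 (95% interval -2.38 to 0.13). Next by p were HSPB3 (-1.07 ± 0.66, 95% interval -2.37 to 0.23) and DNAJB5 (-1.06 ± 0.70). The difference was below 0 in 35 of 53 members, or 66%, against 46.7% of all genes compared. This test treats the tissues as independent, although 4 of the dogs gave both.

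Levels in control valve and control ventricle can only be set side by side, because the tables were normalised separately. Over 11498 genes at or above 1 FPKM in both, the median log2 ratio of valve to ventricle was 0.31, and the ratios that follow are relative to that shift. DNAJC19 had -1.23 (546 against 1031 FPKM), HSPB3 -0.99, HSPB7 -0.86 and HSPA9 -0.67, while HSPB6 had 0.23 and HSPB1 -0.25. The largest ratio in favour of the valve among tested members was that of HSPA12A, a distant HSP70 relative, at 2.13 (3.31 FPKM in the valve, 0.608 FPKM in the ventricle).

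Several well-known chaperones had no row under the symbol looked for, 10 of 31 names in all, among them HSP90AB1, HSPD1, HSPA2, HSPB2, DNAJA1 and DNAJB6, and were not analysed here. A further 2 rows carry protein entry names that do not match the rule but belong to the same families. HSP71_CANFA, a stress-inducible HSP70 on chromosome 12, was at 80.3 FPKM in control and 134.6 FPKM in DMVD ventricle (0.75 ± 0.48, not called) and at 53.0 and 81.5 FPKM in the valve (0.62 ± 0.54). ENPL_CANFA, the HSP90 of the ER, had 0.08 ± 0.48 in the ventricle and 0.19 ± 0.61 in the valve. The row named HSPE1 needs care: its locus spans 310 bases on chromosome 11, between ZFP62 and OR2V1, whereas RefSeq's UU_Cfam_GSD_1.0 annotation has HSPE1 next to HSPD1. Whether its reads came from a near-identical copy was not tested.

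Other genes of the chaperone network were counted by list. Of 38 co-chaperone and heat shock factor genes outside the rule 1 was called in the ventricle, the glucocorticoid-receptor chaperone FKBP5, a gene that glucocorticoids induce. FKBP5 rose from 7.63 FPKM in control to 28.7 FPKM in DMVD (1.91 ± 0.45), with a Benjamini-Hochberg adjusted p = 0.00162 from the p-values of the authors' deposited table. None was called lower and 37 did not pass, so that 2.63% of the list was called against 3.08% of all tested genes. In the valve 0 of the 38 were called and 1, FKBP5 again, had an unadjusted p under 0.05. The list medians were 0.06 and -0.14. Among those that did not pass were genes of muscle protein upkeep: BAG3 had 0.31 ± 0.42 in the ventricle and 0.25 ± 0.51 in the valve, the small heat shock protein CRYAB 0.49 ± 0.55 and -0.41 ± 0.83, and the myosin chaperone UNC45B -1.09 ± 0.42 and -0.75 ± 0.46. Of 13 genes of the cytosolic chaperonin CCT and prefoldin 0 were called and 0 had an unadjusted p under 0.05 in either tissue, with 11 above 0 in the ventricle (median 0.28) and 3 in the valve (median -0.03). Of all tested genes 3.08% were called in the ventricle and 0.419% in the valve, and 11.3% and 4.2% had an unadjusted p under 0.05.

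Of the unfolded protein response genes, the ER stress programme that includes HSPA5 and DNAJB9, 3 of 23 tested in the ventricle rose, while 20 did not pass and no member was called lower. The called genes were 13% of the list against 1.92% of all tested genes called higher. In the same DMVD ventricle group 8 of 21 immediate early genes, 3 of 6 leukocyte markers and 3 of 4 erythroid genes were also called higher, and their part in this count was not tested. The 3 unfolded protein response genes were asparagine synthetase ASNS (0.342 FPKM in control, 1.52 FPKM in DMVD, 2.16 ± 0.58), the disulfide oxidase ERO1L (4.23 and 14.7 FPKM, 1.80 ± 0.44) and the ER factor SDF2L1 (3.77 and 11.7 FPKM, 1.64 ± 0.52). The fold change of ASNS rests on a control value under 1 FPKM. SDF2L1 was close to the threshold, with a Benjamini-Hochberg adjusted p = 0.0497 from the p-values of the authors' deposited table. The list median was 0.16 in the ventricle and 0.21 in the valve, where 0 of 24 were called and 0 had an unadjusted p under 0.05. Of all tested genes of the valve 0.419% were called and 4.2% had an unadjusted p under 0.05. DDIT3, the death-promoting factor of this response, was at 3.42 FPKM in control and 3.54 FPKM in DMVD ventricle.

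The precision of these values sets what could have been called. The median SE of the 53 members was 0.48 in the ventricle and 0.57 in the valve. At that SE a call would have needed a log2 change of 1.53 in the ventricle, or 2.89-fold, and 2.10 in the valve, or 4.30-fold. The 95% interval lay inside 2-fold in both directions for 4 of 53 members in the ventricle (HSPA9, HSPB3, HSPBP1 and DNAJC8) and for 2 in the valve (HSPA14 and DNAJC7), against 8.82% and 7.05% of all tested genes. For the rest a 2-fold change in at least 1 direction lies within the interval. The least precise were DNAJB2 and DNAJC4, with an SE of 6.64 and 2.96 in the ventricle and 10.6 and 2.70 in the valve, although both were between 35.2 and 48.8 FPKM in every group. Their loci are listed for 11 and 13 genes. A locus shared with other genes was listed for 16 of 53 tested members, or 30.2%, against 27.7% of tested genes in the ventricle and 27.6% in the valve. Over these 16 the median SE was 0.54 in the ventricle and 0.66 in the valve, and over the other 37 it was 0.47 and 0.55.

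**Figure D4:**
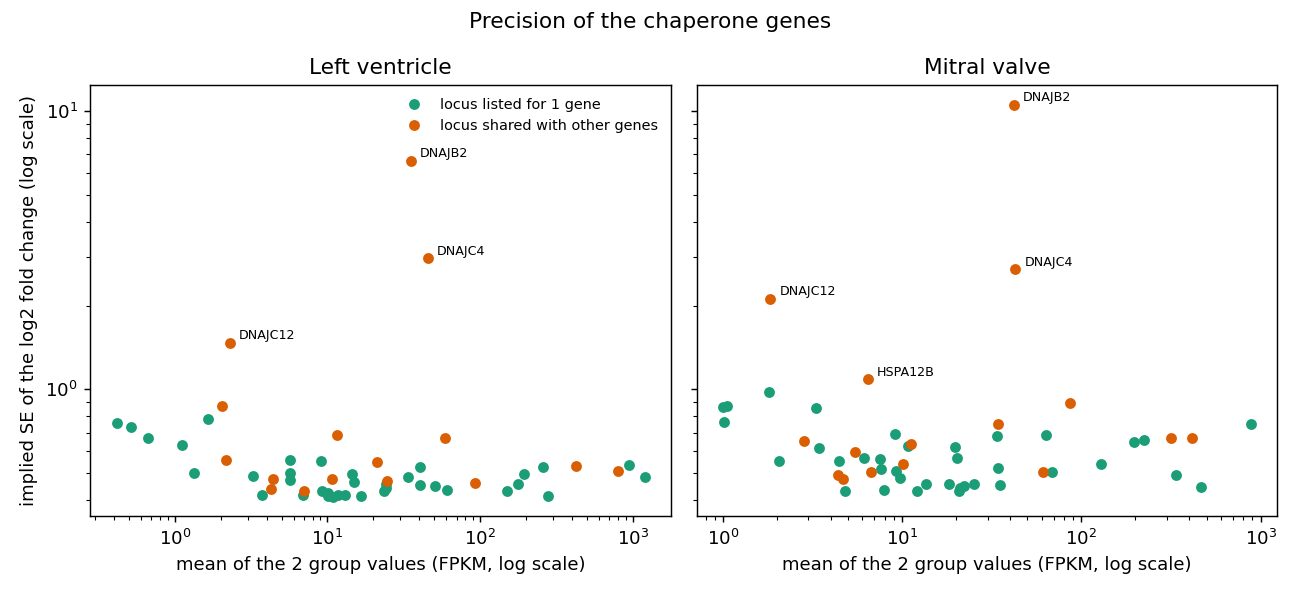
Implied SE of the log2 fold change against the mean of the control and DMVD group values (FPKM), both on log scales, for the 53 tested chaperone genes in each tissue, coloured by whether the listed locus is shared with other genes. Named points have an SE above 1: DNAJB2, DNAJC4 and DNAJC12 in both tissues and HSPA12B in the valve, all at shared loci.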

How the data were processed

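RNA of left ventricle and mitral valve was sequenced, and the authors deposited 1 gene table per tissue with group values only. Per the submitters' processing notes cutadapt, Bowtie, TopHat and CanFam3.1 were used; which software produced the values per gene was not given in the sources used here. Per the file headers the columns are laid out as in a Cuffdiff gene table, and the group values were read as FPKM normalised by the authors within each tissue. The log2 fold change that the authors deposited has control on top and was recomputed with DMVD on top. The authors' deposited test statistic, a score, gave the SE: the absolute log2 fold change over the absolute statistic. The authors' deposited p-value lies within 2.84e-06 of the normal p (two-sided) for that statistic and was adjusted by Benjamini-Hochberg over the genes they tested. The depth of each library is unknown, and p-values follow the authors' model of spread. The test of valve against ventricle was a two-sided z test with the SE of both tissues added in quadrature, with Benjamini-Hochberg over 13099 genes.

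The planned test for tables of group values was used. Members, lists and tests were chosen with earlier results of these data known. Genes named were members called, the 10 most abundant per tissue, the 3 smallest p of each class per tissue and a fixed core of 31 names, which together gave 33 members; others are named to account for every class. Marker lists were matched by symbol as written; 14 of 24 cardiomyocyte, 9 of 12 endothelial and 8 of 14 fibroblast and valve interstitial cell names were found. List genes that are themselves members were left out, and sums of FPKM cover tested genes. Further lists describe the samples: in the ventricle 0 of 9 smooth muscle and pericyte genes tested were called, against 3.08% of all tested genes. In the valve 0 of 4 erythroid, 1 of 6 leukocyte, 0 of 9 smooth muscle and pericyte and 0 of 19 immediate early genes were called higher. The share of all tested genes called higher there was 0.311%. None of these lists had a gene called lower in either tissue. Functions were tested on simulated data. Symbols of 58 members stood once in the RefSeq table of UU_Cfam_GSD_1.0, used for neighbours only. The work was done in Python 3.11.15 with pandas 2.3.3, scipy 1.17.1, numpy 2.4.6 and, for figures, matplotlib 3.10.9.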

Additional observations from a re-analysis of the deposited data

How the results depend on the processing

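The count of chaperone genes called was 0 in each tissue and for the difference between tissues. In each tissue it stayed 0 over genes whose mean reached 1 FPKM and with centred fold changes. With 1 or 0.1 FPKM added, or Benjamini-Yekutieli in place of Benjamini-Hochberg adjustment, it was 0 too, but these settings could not have raised it. The added FPKM left the authors' p-values as they were, and Benjamini-Yekutieli can only raise an adjusted p. For the difference it stayed 0 over genes reaching 1 FPKM, with centred fold changes and with a correlation of 0.5 between the tissues. The lowest adjusted p of a named member under any of these was 0.300, for HSPB6 in the valve with centred fold changes. Of 425 values of named members under these alternatives, 421 kept their direction and their side of the threshold and 4 changed sign, all on centring. Only centring could change a sign, so most of the 421 kept theirs by construction. HSPA9 became 0.0167 in the ventricle, and DNAJC16 became -0.0264, HSPH1 -0.0289 and HSPA14 -0.0276 in the valve. Over all 53 tested members centring moved the count below 0 from 22 to 20 in the ventricle and from 34 to 39 in the valve. With 1 FPKM added, 6 members in the ventricle and 5 in the valve had values smaller by over 1.5 times. The wider compartment lists were chosen after seeing the data. No paired analysis was possible because the tables hold 1 value per group and none per dog, and for the same reason leaving out single libraries was not run. With 1 value per group and unknown depth, the spread between dogs and the counting error behind a value cannot be given.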

Other observations

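DNAJC21, a J protein of ribosome assembly, had 0.33 ± 0.42 in the ventricle and -0.20 ± 0.48 in the valve, and the neuronal vesicle J protein DNAJC5 had -0.34 ± 0.46 and -0.08 ± 0.57. The spliceosome-associated DNAJC8 was abundant in all groups, at 48.9 FPKM in control and 51.7 FPKM in DMVD ventricle and 68.3 and 58.1 FPKM in the valve. The 3 genes that share only the HSPB letters lay close to 0: the HSP70 exchange factor HSPBP1 had -0.07 ± 0.43 and -0.13 ± 0.46, HSPBAP1 0.29 ± 0.48 and -0.17 ± 0.54, and HSPB11, a protein of intraflagellar transport, 0.16 ± 0.50 and -0.01 ± 0.63, ventricle first.

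The closest members on CanFam3.1 form 2 pairs, HSPB9 and DNAJC7 on chromosome 9 with 79.5 kb between them, and HSPB7 and DNAJC16 on chromosome 2 with 361 kb between them. HSPB7 was at 907 FPKM in DMVD ventricle and DNAJC16 at 0.404 FPKM, and HSPB9 was listed at 0 while DNAJC7 was at 15.5 FPKM.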
